A study of Homo sapiens with 2 samples.

Results

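The regions described here are the distal regions inside protein-coding genes where FLAG-SMARCA4 ChIP-seq gave more tags in EZH2 inhibitor-resistant (EIR) cells than in parental cells. TOV21G is an ovarian clear cell carcinoma cell line with mutated ARID1A. The data are 1 library from parental TOV21G cells and 1 from the resistant clone numbered 3, which had been selected in GSK126 raised from 5 to 20 μM. Both carried SMARCA4 tagged with FLAG at its own locus by genome editing, in cells grown from single colonies, so each condition is 1 clone and 1 library. Whether the clone was in GSK126 at harvest is not given in the sources used here.

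The members were chosen by their tag counts. A region had to be in the EIR-higher list, lie on chromosomes 1 to 22 or X except 10, lie over 5 kb from the transcription start site (TSS) of any annotated transcript, and have its centre inside a protein-coding gene. The rule found 313 of the 2104 EIR-higher regions, and of the 12896 regions of both lists. Of the EIR-higher regions, 1639 were on these chromosomes. By the same rule the parental-higher list gave 1628 regions inside coding genes, and 513 further EIR-higher regions were distal but intergenic. EIR-higher regions were 14.6% of all regions of both lists on these chromosomes, 16.1% of the distal regions inside coding genes and 25.1% of the distal intergenic ones. Because the tags chose the members, their tags and folds below are a description and no test was made on them. Counting intervals compare 2 libraries and not 2 conditions, and those of shares and medians take each region or gene as a separate draw.

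SMARCA4 (BRG1) is one of the mutually exclusive ATPases of the SWI/SNF complex, which slides and evicts nucleosomes. ARID1A is a DNA-binding subunit of the same complex, and EZH2 is the catalytic subunit of PRC2, which methylates histone H3 at lysine 27 and opposes SWI/SNF at many loci. Away from promoters SWI/SNF is known mainly from enhancers, many of which lie in the introns of genes, and a region inside a gene need not act on that gene. GSK126 is an inhibitor of the EZH2 methyltransferase.

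The central 240 bases of 8 members are shown, because these are single-copy intronic regions at both ends of the range: the 4 with the largest folds and the 4 with the most tags among members with no recurring 36-base window and with their centre in an intron of the canonical transcript, CSMD1 passed over. Sequences are the plus strand of GRCh37 (hg19), and capitals mark matches to 1 of the 14 motifs searched below. The regions of the largest fold were these.

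NRXN3, chr14:78663099-78663338: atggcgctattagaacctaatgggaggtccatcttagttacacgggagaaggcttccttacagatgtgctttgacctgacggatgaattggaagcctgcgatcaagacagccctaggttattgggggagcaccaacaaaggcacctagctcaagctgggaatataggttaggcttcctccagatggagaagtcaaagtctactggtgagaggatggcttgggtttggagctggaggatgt

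TBC1D4, chr13:75991103-75991342: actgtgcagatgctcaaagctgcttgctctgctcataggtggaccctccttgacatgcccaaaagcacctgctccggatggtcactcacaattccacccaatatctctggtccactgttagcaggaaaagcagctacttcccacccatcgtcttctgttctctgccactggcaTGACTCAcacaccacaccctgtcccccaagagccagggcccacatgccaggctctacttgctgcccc

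COL23A1, chr5:177844149-177844388: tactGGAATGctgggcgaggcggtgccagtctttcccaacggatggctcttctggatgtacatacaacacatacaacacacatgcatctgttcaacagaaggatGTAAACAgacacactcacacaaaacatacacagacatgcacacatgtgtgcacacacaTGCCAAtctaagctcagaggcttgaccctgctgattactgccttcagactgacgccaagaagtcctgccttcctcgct

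AUTS2, chr7:69085279-69085518: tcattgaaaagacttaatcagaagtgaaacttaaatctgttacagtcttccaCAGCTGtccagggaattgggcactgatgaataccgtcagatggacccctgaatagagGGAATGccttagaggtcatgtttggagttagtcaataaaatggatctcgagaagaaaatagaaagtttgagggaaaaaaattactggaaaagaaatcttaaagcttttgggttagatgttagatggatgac

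The regions with the most tags were these.

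CDH22, chr20:44859310-44859549: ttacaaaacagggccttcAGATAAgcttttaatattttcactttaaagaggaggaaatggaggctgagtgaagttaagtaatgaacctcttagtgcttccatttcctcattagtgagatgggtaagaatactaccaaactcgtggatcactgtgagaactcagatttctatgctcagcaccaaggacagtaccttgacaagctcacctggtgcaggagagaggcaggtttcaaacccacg

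DTX1, chr12:113502751-113502990: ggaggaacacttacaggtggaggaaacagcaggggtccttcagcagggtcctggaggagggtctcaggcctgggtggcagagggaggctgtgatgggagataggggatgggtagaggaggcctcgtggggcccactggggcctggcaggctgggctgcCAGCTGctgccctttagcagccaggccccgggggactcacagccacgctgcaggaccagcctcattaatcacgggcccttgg

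SYT7, chr11:61334735-61334974: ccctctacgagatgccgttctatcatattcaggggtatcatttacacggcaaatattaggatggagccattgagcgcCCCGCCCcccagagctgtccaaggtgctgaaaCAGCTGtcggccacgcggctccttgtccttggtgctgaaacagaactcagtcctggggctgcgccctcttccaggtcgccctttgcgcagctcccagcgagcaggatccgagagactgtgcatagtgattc

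ATP2B2, chr3:10501876-10502115: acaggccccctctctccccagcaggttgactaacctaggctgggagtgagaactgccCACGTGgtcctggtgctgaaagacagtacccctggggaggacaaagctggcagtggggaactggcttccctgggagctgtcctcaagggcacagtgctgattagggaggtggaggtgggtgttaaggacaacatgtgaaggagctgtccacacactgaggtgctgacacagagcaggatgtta

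The 8 windows differed widely in composition. Their GC content ran from 37.9% in AUTS2 to 65.8% in DTX1, and SYT7 held 13 CpG against 1 in ATP2B2. NRXN3, which had no tag in the parental library, matched none of the motifs in its window. TBC1D4 held a full AP-1 site, and COL23A1 held a TEAD, a FOX and an NFI match.

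Most of the 313 regions had few tags in either library. Tags of the EIR library are given scaled to the total of the parental library, in which 1 EIR tag counts as 0.73303. Such tags are relative to the library totals, and the paper reports that SMARCA4 binding fell across the genome in EIR cells. A higher scaled count is thus no measure of an absolute gain in binding. Scaled EIR tags ran from 14.7 to 370.9 with a median of 17.6, and parental tags ran from 0 to 302 with a median of 5. In 245 members the scaled EIR tags were under 20, in 15 they were at least 30 and in 5 at least 60. Summed over the 172 kb of members, 6647 scaled EIR tags stood against 2010 parental tags, which is 38.7 against 11.7 per kb. The median fold was 3.85 (95% interval from order statistics 3.67 to 4.03). At least a 4-fold difference was listed for 147 members, and 3 were under 2-fold. No parental tag was counted in 1 member and 1 to 3 tags in 68, so the largest folds rest on very few parental tags. In 267 members (85.3%) the region was the minimum 500 bp, against 70.2% of the parental-higher distal intragenic regions.

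**Figure D1:**
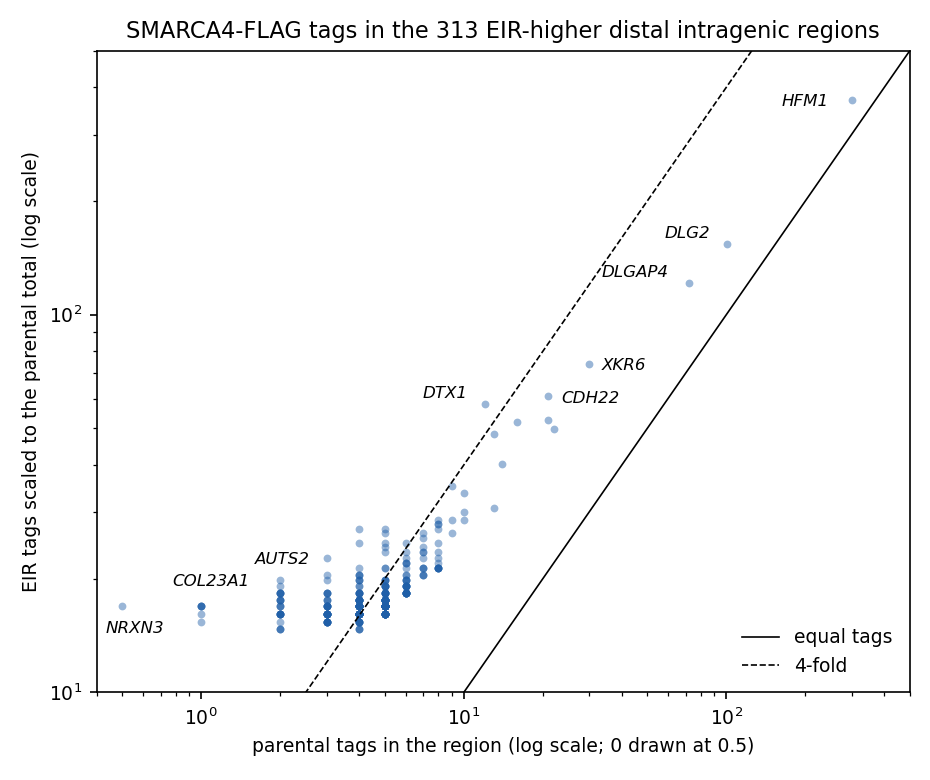
Tags of the 313 members in the parental library (x axis, log scale, 0 drawn at 0.5) against EIR tags scaled to the parental total (y axis, log scale), 1 point per region, with lines at equal tags and at a 4-fold difference. Most points sit between 14.7 and 20 scaled EIR tags, and the 3 with the most tags, in HFM1, DLG2 and DLGAP4, lie nearest to the line of equal tags.

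The largest fold was in NRXN3, which encodes neurexin-3, a presynaptic adhesion protein. Its region, chr14:78662969-78663469 in intron 1 of 20 of the canonical transcript, had 23 EIR tags (16.9 scaled) and 0 parental tags. Against a floor of 3 parental tags the EIR library was at least 5.63-fold higher, and the exact counting interval of the ratio began lower, at 4.21. A further 4 regions had the same 23 EIR tags and 1 parental tag each, a ratio of 16.9 with an exact counting interval of 2.74 to 695. One was in intron 1 of TBC1D4 (chr13:75990973-75991473), which encodes a Rab GTPase-activating protein of insulin-stimulated glucose uptake. Another was in intron 2 of the transmembrane collagen gene COL23A1 (chr5:177844019-177844519). The other two lay inside RND3 (chr2:151377852-151378352) and CHRNA1 (chr2:175643195-175643695), which encodes a subunit of the muscle acetylcholine receptor. Both of these were within the annotated gene and outside its canonical transcript. Their lower bound of 2.74 is below the median fold of all members, so the order among the largest folds is not resolved at these counts.

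The rest of the 10 largest folds had 1 or 2 parental tags. CSMD1, the gene of a very large membrane protein with CUB and sushi domains, had 22 EIR tags (16.1 scaled) against 1 parental tag in its intron 5. COL26A1, a collagen gene, had 21 EIR tags (15.4 scaled) against 1 in intron 1, and 20.6% of the 36-base windows of that region recur elsewhere in the genome. In AUTS2, a gene of neuronal development, 27 EIR tags (19.8 scaled) stood against 2 parental tags at chr7:69085149-69085649 in intron 1, a ratio of 9.90 (2.49 to 85.9). MAPKAPK3, a kinase gene downstream of p38, had 26 EIR tags (19.1 scaled) against 2 in intron 2. GRIK3, a kainate receptor gene, had 25 EIR tags (18.3 scaled) against 2 in intron 5. In all 10 the EIR library was high at under 20 scaled tags, and the parental library was close to empty.

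The members with the most tags were high in both libraries. HFM1, which encodes a meiotic DNA helicase, had 506 EIR tags (370.9 scaled) and 302 parental tags at chr1:91852540-91853298 in intron 4 of 38, a ratio of 1.23 (1.06 to 1.42). DLG2, a synaptic scaffold gene, had 210 EIR tags (153.9 scaled) and 101 parental tags at chr11:85194839-85195339 in intron 3, a ratio of 1.52 (1.20 to 1.95). DLGAP4, whose product binds such scaffolds, had 165 EIR tags (121 scaled) and 72 parental tags at chr20:35011838-35013612 in intron 2, a ratio of 1.68 (1.27 to 2.25). These were the 3 members under 2-fold, and sequence that recurs in the genome took up 57.0%, 31.3% and 14.4% of their 36-base windows. The part of recurring sequence in their tags was not tested.

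Below them came regions that were mostly unique sequence. XKR6 had 101 EIR tags (74 scaled) and 30 parental tags in intron 1, with 8.23% of windows recurring. CDH22, a cadherin gene, had 83 EIR tags (60.8 scaled) and 21 parental tags over chr20:44858454-44860406 in intron 3, a ratio of 2.90 (1.78 to 4.93). This was the longest member at 1952 bp, and none of its windows recurred. DTX1, which encodes a ubiquitin ligase of the Notch pathway, had 79 EIR tags (57.9 scaled) and 12 parental tags over chr12:113502171-113503571 in intron 2. Its ratio of 4.83 (2.61 to 9.73) was the largest of the 10 members with the most tags. SYT7, a calcium sensor of membrane fusion, had 72 EIR tags (52.8 scaled) and 21 parental tags in intron 1 (chr11:61334473-61335237). ATP2B2, a plasma membrane calcium pump gene, had 71 EIR tags (52 scaled) and 16 parental tags in intron 1 (chr3:10501478-10502514). CACNA2D2, which encodes an auxiliary subunit of voltage-gated calcium channels, had 68 EIR tags (49.8 scaled) and 22 parental tags in intron 3. C16orf74 had 66 EIR tags (48.4 scaled) and 13 parental tags in intron 2. These regions combine more tags with folds of 2.27 to 4.83, and so have narrower intervals than the largest folds do.

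The 313 members lay in 270 host genes. One region was found in 238 hosts, 2 in 23 hosts, 3 in 7 hosts and 4 in 2 hosts. The hosts were long, with a median of 180 kb against 151 kb for the 829 hosts of parental-higher distal intragenic regions and 48.2 kb for all coding genes with sequence over 5 kb from any TSS. In 16 members (5.11%) the centre lay in more than 1 coding gene, and the shortest was then taken as host.

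Both hosts with 4 members are long genes, and they differed in what else they held. CAMTA1 (984 kb), which encodes a calmodulin-binding transcription activator, had 4 members of 16.9 to 19.8 scaled EIR tags within 240 kb and also 11 parental-higher regions of 17 to 36 parental tags. The nearest pair of opposite regions in CAMTA1 was 1.65 kb apart. CSMD1 (2060 kb) had 4 members within 318 kb, at 3.23- to 16.1-fold, and no parental-higher region. RAD51B, a homologous recombination gene of 910 kb, was like CAMTA1: 3 members of 3.18- to 3.81-fold stood beside 14 parental-higher regions, no nearer than 20.0 kb. The remaining 6 hosts with 3 members, AUTS2, CACNA1H, FSTL4, MEGF6, PTPRN2 and SGPP2, held no parental-higher distal region.

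CACNA1H (68.7 kb) and MEGF6 (124 kb) were the shortest of these hosts, and their members were GC-rich and lay near a chromosome end. In CACNA1H, which encodes a T-type calcium channel, the 3 members lay within 11.4 kb in intron 2, at 22, 19.1 and 16.9 scaled EIR tags against 8, 5 and 5 parental tags, with 66.2%, 67.2% and 64.8% GC. In MEGF6, a gene of EGF-like repeats, they lay within 49.5 kb at 26.4, 25.7 and 16.9 scaled EIR tags against 9, 7 and 4 parental tags, with 68, 66 and 67.2% GC. The CACNA1H members were 1.23 to 1.24 Mb from the chromosome end and those of MEGF6 3.42 to 3.47 Mb. SGPP2, a sphingosine-1-phosphate phosphatase gene, was unlike them: its 3 members of 17.6, 16.9 and 16.1 scaled EIR tags, against 5 parental tags each, had 33.8%, 39.2% and 48.4% GC and were 19.8 to 19.9 Mb from the end. PTPRN2, a receptor-type phosphatase gene of secretory vesicles, had 3 members spread over 884 kb at 4.40-, 8.80- and 7.33-fold. These too lay near a chromosome end, at 0.785 to 1.67 Mb, with 48.8% to 61.2% GC. The CSMD1 members were 3.67 to 3.98 Mb from the end with only 32.8% to 47% GC.

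Within their genes the members were mostly intronic, as is the sequence in which they could lie. Exons of coding genes made up 4.37% of its bases, a share of bases and not of regions. The centre was in an intron of the canonical transcript in 256 members (81.8%, Wilson interval 77.1 to 85.7), against 86.6% (84.9 to 88.2) of the parental-higher distal intragenic regions. The first intron held 95 members (30.4%) against 35.6%. An exon of the host, in any transcript, was overlapped by 42 members (13.4%, 10.1 to 17.6), against 6.08% (5.02 to 7.35) of the parental-higher regions. The centre lay in an exon of the canonical transcript in 19 members (6.07%, 3.92 to 9.29) against 2.70% (2.02 to 3.61). Coding sequence was overlapped by 30 members (9.58%) against 3.99%. Examples are SETD1B, a histone H3 lysine 4 methyltransferase gene, with 28 EIR tags (20.5 scaled) against 4 parental tags, and COL6A5, a collagen gene, with 28 EIR tags (20.5 scaled) against 6. The distance to the nearest TSS had a median of 13.96 kb (12.5 to 16.4) in the members and 14.3 kb (13.7 to 15.0) in the parental-higher regions, and the position along the host was alike, at a median of 45.2% and 42.9% of its length from the start.

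The clearest difference from the parental-higher regions was in base composition. The central 500 bp of the members had a median GC content of 49.2% (48.2 to 51.0), against 42.6% (42.2 to 43.0) in the parental-higher distal intragenic regions. The sequence in which either kind could lie was 40.4% GC. GC above 60% was found in 15.7% of members (12.05 to 20.1) and in 3.32% of parental-higher regions (2.55 to 4.30), and at least 10 CpG in 30.03% against 13.6%. EIR-higher distal intergenic regions had a median of 49.4%, and the parental-higher intergenic ones 44.6%, so the direction was not limited to gene bodies. The EIR-higher share of both lists rose with GC content, from 1.97% (3 of 152) below 35% GC, through 10.0% (54 of 538) at 40 to 45%, to 46.7% (49 of 105) at 60% and above, beside 16.1% over all. The rise did not run to the top of that last class. Its median GC was 63.2% in members and 69.2% in parental-higher regions, and the highest values were 70.4% and 83%. No class of GC content was free of members: the SGPP2, AUTS2 and CSMD1 regions named above include ones of 33.8%, 36.6% and 32.8% GC. With 1 library for each condition, a difference between the libraries in recovering GC-rich DNA and a difference between the cells cannot be told apart.

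The members also lay nearer to chromosome ends. Within 10 Mb of an end were 96 members (30.7%, 25.8 to 35.99), against 14.1% (12.5 to 15.8) of the parental-higher regions and 13.7% of the sequence in which they could lie. Within 5 Mb they were 66 (21.1%) against 6.82%. Within 10 Mb were also 26.9% of the EIR-higher distal intergenic regions (23.2 to 30.9) and 15.9% of the parental-higher ones (14.2 to 17.8). The direction was thus not limited to gene bodies. In the outermost 5 Mb 37.3% of the distal intragenic regions of both lists were EIR-higher (66 of 177), and between 20 and 40 Mb 11.2% (63 of 563). GC content moved with this: members in the outermost 5 Mb had a median of 59.5% GC, and those 40 to 80 Mb from an end 46.6%. At 50 to 60% GC the EIR-higher share was 40% within 10 Mb of an end (29.7 to 51.3) and 32.1% farther in (26.1 to 38.7), and at 40 to 50% GC 19.6% (13.8 to 27.0) and 13.7% (11.6 to 16.2), with overlapping intervals in both classes. At 60% GC and above the 2 zones were apart, at 62.1% near the ends (36 of 58, 49.2 to 73.4) and 27.7% farther in (13 of 47, 16.9 to 41.8). The zones were not alike in GC in that class. Near the ends the median was 64.5% in members and 65.2% in parental-higher regions, and farther in 62.2% and 70.6%. Over 10 Mb from the ends the share climbed with GC from 5.26% (3.43 to 7.99) at 35 to 40% to 29.7% (22.8 to 37.5) at 50 to 55% and 37.5% (26.7 to 49.7) at 55 to 60%, and was 27.7% at 60% and above, where it was 46.7% over all regions.

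**Figure D2:**
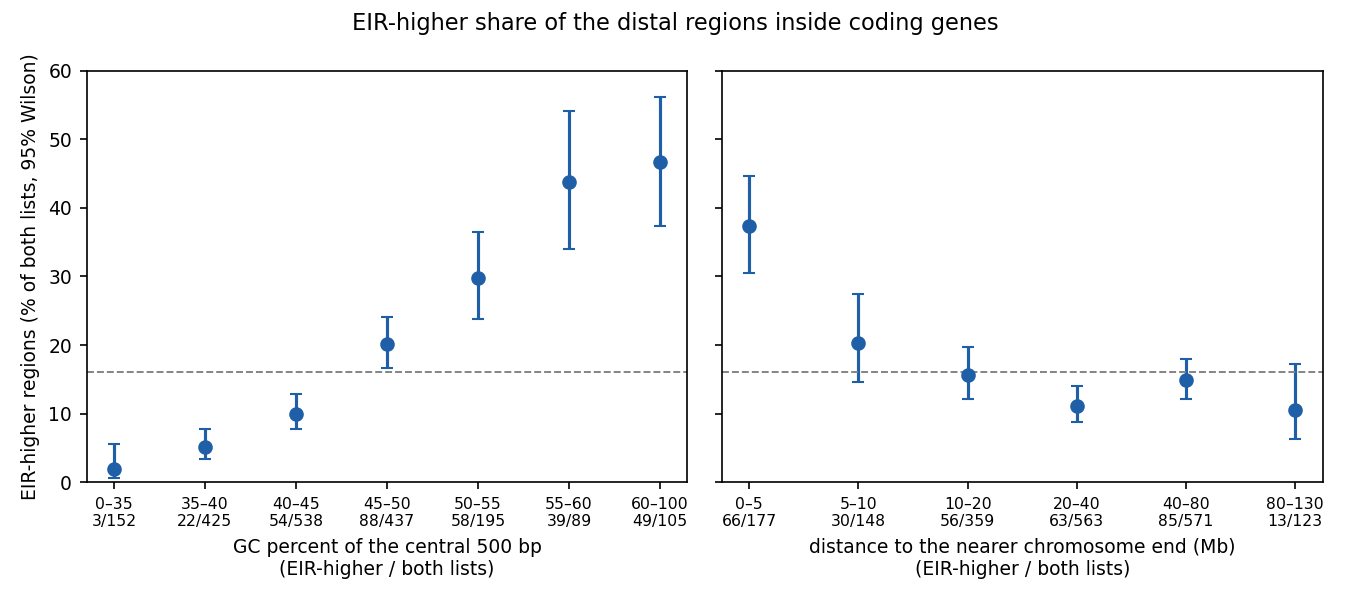
EIR-higher regions as a percentage of the distal intragenic regions of both lists (y axis, points with 95% Wilson intervals) by GC percent of the central 500 bp (left) and by distance to the nearer chromosome end in Mb (right), with the counts under each class and the share over all classes, 16.1%, as a dashed line. The share climbs from 1.97% to 46.7% across the GC classes, and is high in the outermost 5 Mb at 37.3%.

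By chromosome, the EIR-higher share ran from 6.94% on chromosome 2 (12 of 173, 4.01 to 11.7) to 36.1% on chromosome 19 (13 of 36, 22.5 to 52.4). Chromosome 16 followed with 27.2% (22 of 81, 18.7 to 37.7), and chromosome 1 held the most members, 42 of 204. The intervals of chromosomes 2, 16 and 19 were clear of the 16.1% over all, and those of the other chromosomes held it. Per Mb of eligible sequence, chromosomes 19 and 16 held 1.10 and 1.06 members and chromosomes 2 and X 0.169 and 0.159. The eligible sequence of chromosomes 19 and 16 was also GC-rich, at 47.3% and 44.3% against 39.6% on chromosome 2.

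**Figure D3:**
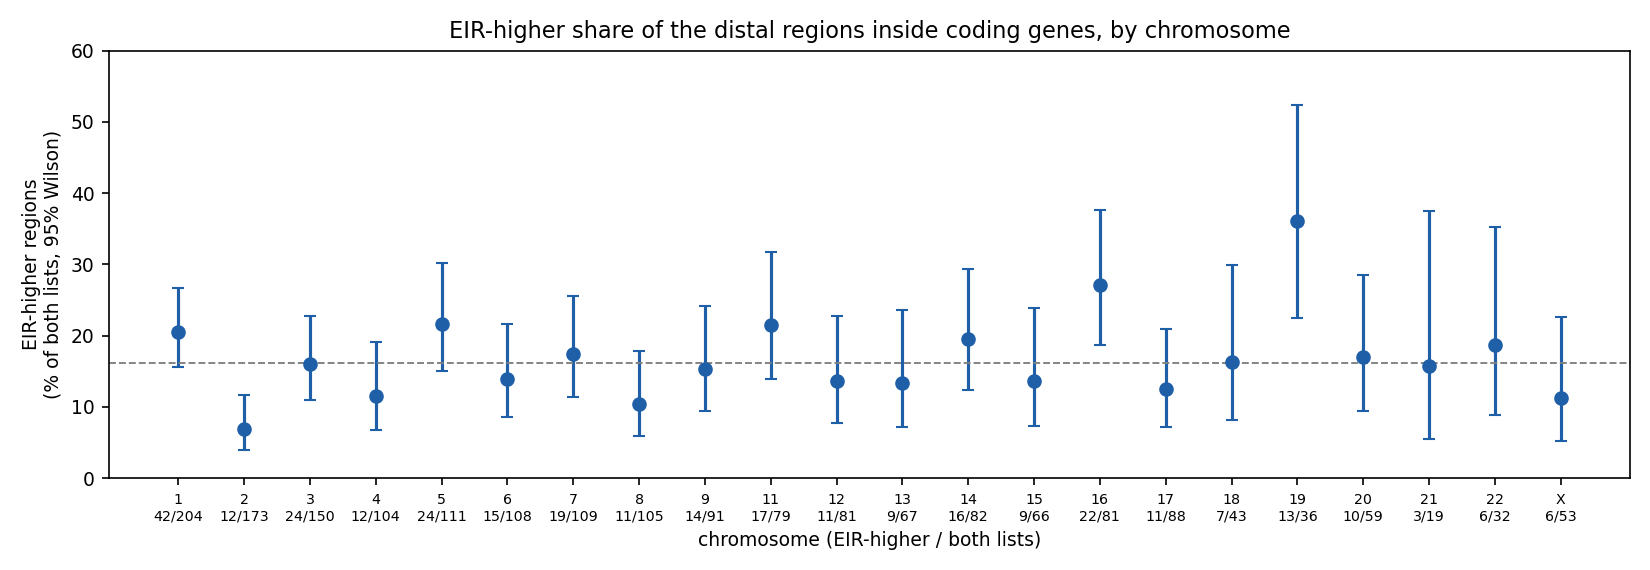
EIR-higher regions as a percentage of the distal intragenic regions of both lists on each chromosome (points with 95% Wilson intervals, counts below, dashed line at 16.1% over all). Chromosomes 16 and 19 lie above the line with their whole intervals and chromosome 2 lies below it.

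The number of tags separated the lists as well. Among distal intragenic regions with under 18 tags in the library where they were higher, 45.4% were EIR-higher (182 of 401), at 18 to 22 tags 11.8% (85 of 718), and at 30 tags or more 4.45% (15 of 337). EIR-higher regions could enter at slightly lower scaled values, 14.7 against 15. Their GC content did not fall with tags: the median was 48.9% in members under 18 tags and 51.4% in those of 30 or more.

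Within 10 kb most members had no neighbour in either list. Another EIR-higher region lay within 10 kb of 24 members (7.67%, 5.21 to 11.2) and a parental-higher region within 10 kb of 27 (8.63%, 5.996 to 12.3). Of the parental-higher distal intragenic regions 44.8% had another parental-higher region that near, and 1.54% an EIR-higher one. The parental-higher list is far longer than the EIR-higher list, so shares are comparable only against the same list. Against the EIR-higher list the members stood at 7.67% and the parental-higher regions at 1.54%, and against the parental-higher list at 8.63% and 44.8%. Within 100 kb the shares were 35.5% and 11.2% against the EIR-higher list, and 47.9% and 88.6% against the parental-higher list. In the genome sequence, 238 members (76.0%) had no 36-base window that recurs, 3 had over 50% recurring windows, and 1 lay within 1 Mb of a large assembly gap. The 3 were the HFM1 region and both regions in HYDIN, a gene with a near-identical copy on another chromosome, whose values are therefore uncertain.

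Some hosts held regions of both directions. Of the 270 hosts, 49 (18.1%, 14.01 to 23.2) also held a parental-higher distal region, against 6.25% (829) of the 13256 coding genes with eligible sequence. Of the hosts of parental-higher distal regions, 5.91% held a member, against 2.04% of the same genes. Host genes were longer than these genes at the median, as given above. In none of the 49 were members more numerous than parental-higher regions, in 20 the numbers were equal, and in 10 a member lay within 10 kb of a parental-higher region of the same host. PDE4D, a cAMP phosphodiesterase gene, is an extreme case with 1 member and 20 parental-higher regions, and it was picked out after its values were seen.

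Start sites of the hosts more often carried an EIR-higher region of their own. The TSSs of all annotated transcripts of a host count here, including those inside the gene. An EIR-higher region lay within 1 kb of a TSS of 27 of the 270 hosts (10.0%, 6.96 to 14.2), against 1.89% of all 13256 coding genes with eligible sequence, the background here, and 8 of 829 hosts of parental-higher distal regions (0.965%, 0.490 to 1.89). A parental-higher region lay at a TSS of 102 hosts (37.8%, 32.2 to 43.7), against a background of 25.7% and 55.6% (52.2 to 59.0) of the hosts of parental-higher distal regions. This order of the 2 kinds of host held in each class of gene length: 29.3% against 49.8% below 100 kb, 37.7% against 57.8% from 100 to 300 kb, and 46.3% against 59.4% above. The share with an EIR-higher region and the background were not split by gene length. Hosts of members were longer than the background genes, with a median of 180 kb against 48.2 kb. The regions at the start sites are no members, and their tags were not used by the rule, but they come from the same 2 libraries.

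The 28 EIR-higher regions at the start sites of these 27 hosts lay 4.68 to 331 kb from the nearest member, with a median of 39.0 kb, and 8 of them within 20 kb. At CACNA1H 68 EIR tags (49.8 scaled) stood against 13 parental tags, 4.68 kb from a member. That region, chr16:1243300-1244638, is at a TSS inside the gene, which begins at 1203106. A parental-higher region also lay within 1 kb of a TSS of CACNA1H. At AUTS2 27 EIR tags (19.8 scaled) stood against 4, 331 kb from a member. This TSS too is internal, with the region at chr7:69432093-69432593 and the gene beginning at 69063282. BMP7, which encodes a bone morphogenetic protein, had the most tags of the 28, 114 EIR tags (83.6 scaled) against 29. Its member in intron 1 had 23 EIR tags (16.9 scaled) against 5.

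**Figure D4:**
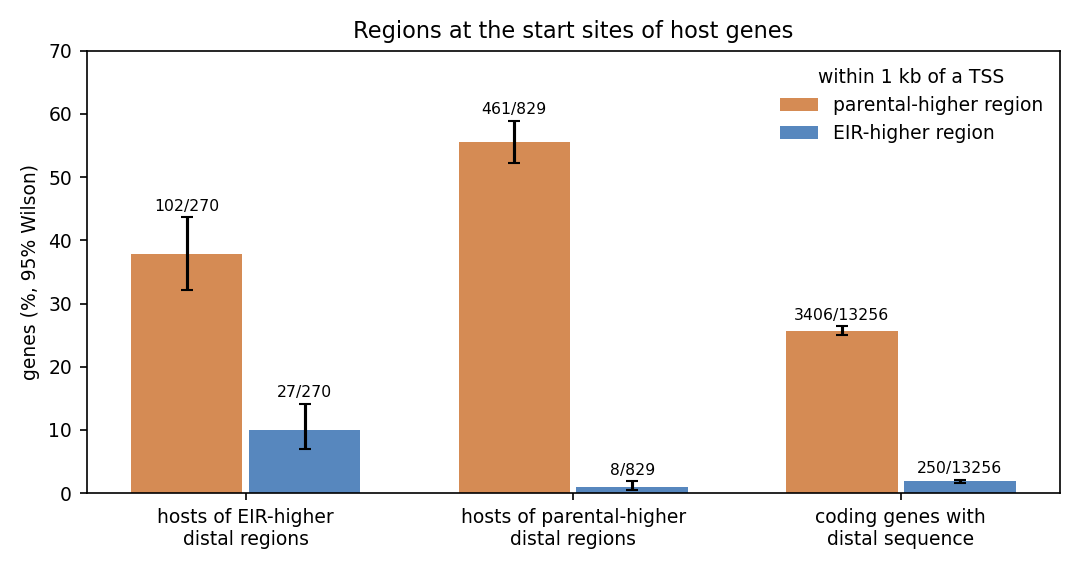
Percentage of genes (bars, 95% Wilson intervals, counts above) with a parental-higher or an EIR-higher region within 1 kb of a TSS, for the 270 hosts of the members, the 829 hosts of parental-higher distal regions, and all 13256 coding genes with sequence over 5 kb from any TSS. EIR-higher regions at a TSS are found for 10.0% of the members' hosts, 0.965% of the parental-higher hosts and 1.89% of all.

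The hosts were compared with 16 gene lists, counting for each list the EIR-higher regions among the distal intragenic regions of both lists, beside 16.1% over all. Small counts make the intervals wide, and nothing is read from the order of the lists. The list named voltage-gated ion channel genes held 12 members of 28 regions (42.9%, 26.5 to 60.9) in 9 of 113 genes, the most members of any list. Of all 13256 coding genes with eligible sequence 2.04% held a member. The list also had the most genes and the most eligible sequence (15.6 Mb). It was made by symbol pattern, so it takes in related channel genes, and 3 of its members lay in CACNA1H. Beside the CACNA1H and CACNA2D2 regions they included KCNJ12, an inward rectifier potassium channel gene with 39 EIR tags (28.6 scaled) against 8 parental tags, and CACNG2, a calcium channel and AMPA receptor subunit gene with 34 (24.9 scaled) against 5. KCNJ12 has a near-identical paralogue, KCNJ18, so its tags are uncertain. Genes of histone acetylation, methylation and remodeling held 6 of 13 (46.2%, 23.2 to 70.9), among them the methyltransferase genes SETD1B and KMT2C, PRDM16, and the histone demethylase gene KDM4B. KMT2C had 25 EIR tags (18.3 scaled) against 5, and 35.8% of its windows recur. KDM4B had 23 (16.9 scaled) against 4.

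Lists of guidance and adhesion genes ran from 40% down to 11.1%. Semaphorin, plexin, SLIT-ROBO, netrin and ephrin genes held 6 of 15 (40%, 19.8 to 64.3). SLIT3, which encodes a secreted guidance ligand, had 42 EIR tags (30.8 scaled) against 13 parental tags, and the netrin receptor genes UNC5A and UNC5C had 27 (19.8 scaled) against 4 and 25 (18.3 scaled) against 6. PLXND1, a semaphorin receptor gene, had 25 EIR tags (18.3 scaled) against 3. Integrin, collagen and laminin genes held 7 of 35 (20.0%, 10.0 to 35.9), among them ITGA1, the collagen-binding integrin α1 gene, with 24 (17.6 scaled) against 5. Cadherin, protocadherin and catenin genes held 1 of 9 (11.1%, 1.99 to 43.5), the CDH22 region above.

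Signalling lists ran from 27.6% down to 5.88%. Receptor tyrosine kinase genes held 8 of 29 (27.6%, 14.7 to 45.7). IGF1R, the insulin-like growth factor receptor gene, had 23 EIR tags (16.9 scaled) against 2 parental tags, the largest fold among the named kinases at 8.43 (2.08 to 73.8), with EPHB1, EPHA6 and ROR2 at 3.05 to 4.40. RAS-MAPK and PI3K-AKT-mTOR genes and Wnt pathway genes each held 4 of 24 (16.7%). WNT3, a Wnt ligand gene, had 25 EIR tags (18.3 scaled) against 2 and WNT9A 27 (19.8 scaled) against 4. TGF-β, BMP and SMAD genes held 2 of 20 (10.0%) and Hippo-YAP and AP-1 genes 1 of 17 (5.88%). WWC1, which encodes the Hippo regulator KIBRA, was that one, with 28 EIR tags (20.5 scaled) against 7.

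BCL2, the anti-apoptotic gene, held the only member of the list of BCL2 family, caspase and death receptor genes (1 of 7). The region, chr18:60904161-60904819 in intron 2, had 29 EIR tags (21.3 scaled) and 6 parental tags, a ratio of 3.54 (1.45 to 10.4), and lay 29.3 kb from the nearest TSS and 82.5 kb downstream of the canonical BCL2 start. A parental-higher region lay within 1 kb of a TSS of BCL2. FOX, SOX, GATA, KLF, RUNX and ETS factor genes held 4 of 14, with RUNX1 at 33 EIR tags (24.2 scaled) against 7. Fatty acid and sterol genes held 1 of 9, in the elongase gene ELOVL5 with 27 (19.8 scaled) against 4. No member lay in SWI/SNF and Polycomb genes (0 of 4 regions), nuclear receptor and coregulator genes (0 of 12, upper bound 24.2%) or ovarian clear cell carcinoma marker genes (0 of 8, upper bound 32.4%).

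Short motifs of 14 transcription factor families were searched in the central 500 bp on both strands, and matches describe letters, not bound sites. Searched were AP-1 (TGANTCA), TEAD (GGAATG), RUNX (TGTGGTT), FOX (TGTTTAC), ETS (CCGGAAG), SP/KLF (GGGCGGG), HNF1 (GTTAATNA), NFI (TTGGCA), the E-boxes CACGTG and CAGCTG, SOX (AACAATG), CEBP (TTGCNNAA), the CTCF core, and, for factors of the GATA family, the letters spelled AGATAA. No fixed string lies within another, but the open positions (N) let a CEBP match hold the NFI letters and a CTCF match hold CAGCTG. For comparison, every twentieth 500-bp tile of the eligible sequence was scanned, 77820 tiles in all. An AP-1 match was found in 57 members (18.2%, 14.3 to 22.9), in 20.9% of the parental-higher regions (19.0 to 22.9) and in 15.2% of tiles. TEAD letters were in 32.9% of members (27.9 to 38.3), 28.6% of parental-higher regions and 24.3% of tiles.

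Larger differences were found for some motifs that are themselves GC-rich or GC-poor, but not for all such motifs. The E-box CAGCTG, bound by tissue-specific bHLH factors, was in 29.7% of members (24.9 to 34.996), 19.9% of parental-higher regions (18.03 to 21.9) and 15.9% of tiles. ETS letters were in 4.79% (2.93 to 7.76) against 1.60% (1.09 to 2.33), and the CTCF core in 4.79% against 2.03% (1.45 to 2.83). The E-box CACGTG was in 10.2% (7.34 to 14.1) against 5.96% (4.91 to 7.22). GATA letters went the other way, in 18.2% of members (14.3 to 22.9), 28.7% of parental-higher regions (26.6 to 30.99) and 33.1% of tiles. Among regions of 45 to 55% GC, 146 members and 486 parental-higher regions, the CAGCTG shares were 28.8% (22.04 to 36.6) and 24.1% (20.5 to 28.1), the ETS shares 2.05% and 2.26%, the CTCF core shares 2.74% and 2.47%, and the GATA shares 15.8% and 19.5%, with overlapping intervals in each pair. In that class AP-1 was in 23.97% of members (17.8 to 31.5), 19.8% of parental-higher regions (16.5 to 23.5) and 14.5% of tiles. FOX and SOX letters were each in 8.90% of these members (5.28 to 14.6), against 3.91% (2.52 to 6.02) and 4.32% (2.84 to 6.52) of these parental-higher regions, on 13 members each and with overlapping intervals. Over all regions FOX letters were in 7.67% of members against 7.99%, and SOX letters in 6.07% against 8.85%. SP/KLF letters were in 7.03% (4.69 to 10.4) against 4.42% (3.53 to 5.53), and HNF1 letters in 6.71% against 7.86%. CEBP letters were in 20.1% (16.1 to 24.9) against 25.5% (23.4 to 27.7). RUNX letters were in 7.99% against 8.54%, and NFI letters in 24.9% against 25.6%. The intervals of these pairs over all regions overlapped.

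**Figure D5:**
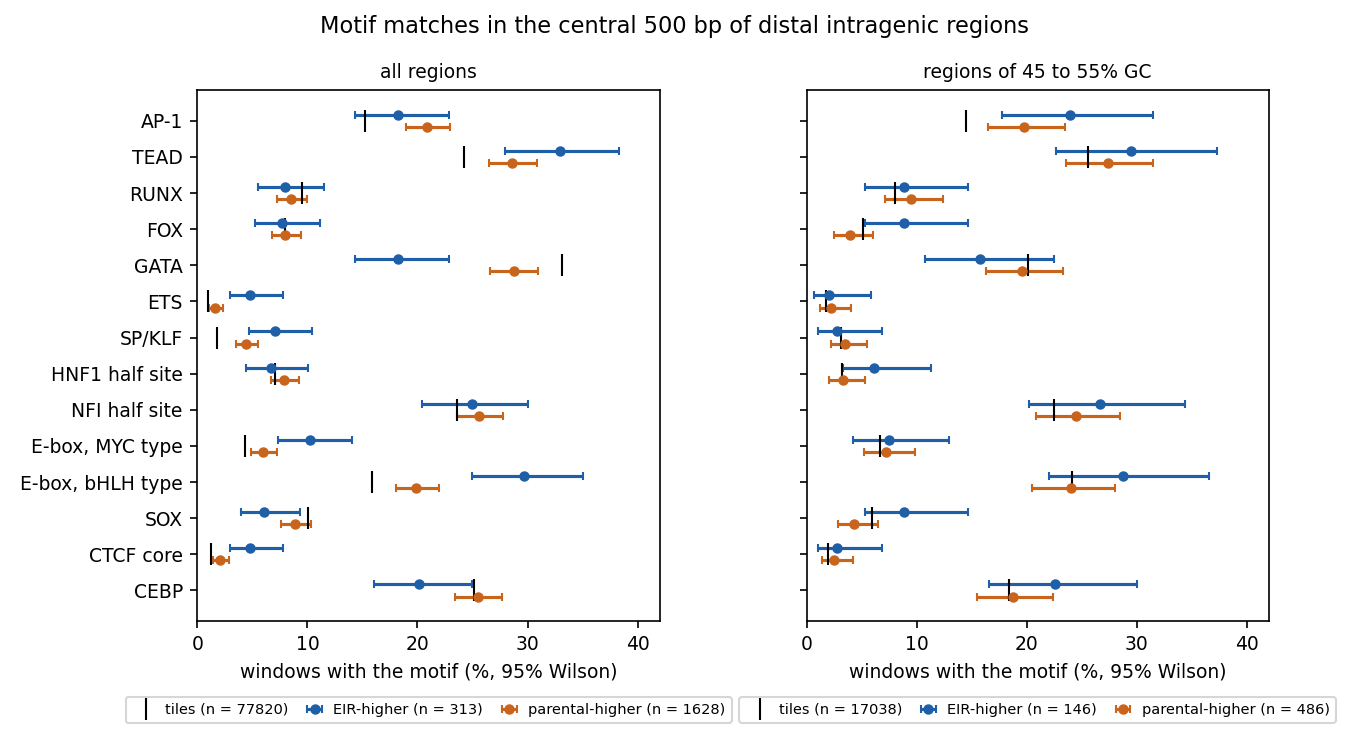
Percentage of 500-bp windows with a motif match (x axis, points with 95% Wilson intervals) for EIR-higher (blue) and parental-higher (orange) distal intragenic regions and for tiles of eligible sequence (black ticks), in all regions (left) and in those of 45 to 55% GC (right). The E-box of MYC type is CACGTG and that of bHLH type CAGCTG. Differences at GATA, ETS, CAGCTG and the CTCF core on the left are within overlapping intervals on the right.

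The thresholds of the rule cut through a continuum. Nearest to the HOMER p-value limit of 1e-04 were 7 members tied at 9.4e-05. The NAV1 and ENOX1 regions among them had 29 EIR tags (21.3 scaled) and the CACNA1H region of most tags had 30 (22 scaled), against 8 parental tags each. Just inside the 5 kb limit were PSMG4 (5.03 kb from a TSS, 16.1 scaled EIR tags against 5), IGFN1 (5.11 kb, 18.3 against 6) and TGM3 (5.13 kb, 16.1 against 3). Just outside it were KCNAB2 (4.92 kb, 63.8 against 24), EMP1 (4.89 kb, 16.9 against 3) and LMX1B (4.88 kb, 16.1 against 5).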

How the data were processed

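FLAG-SMARCA4 ChIP-seq was analysed in 1 library of parental TOV21G cells and 1 of EIR clone 3, grouped by the sample labels. Per the labels, reads were aligned to hg19 with Bowtie 0.12.9 and regions were found with HOMER. By the paper's methods HOMER ran in its histone style, each library serving as control of the other. The deposited lists give parental tags as counts. They give EIR tags as a signal scaled by the authors to the parental total, a normalized tag signal, the fold as the ratio of the libraries, and a Poisson p-value, which takes the control tags as exact. Where the control had no tag the authors used 0.5 of a tag. The score and clonal fold columns of the deposited files were not used.

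The step of the scaled tags gave 0.73303 per EIR tag. All 173 distinct scaled values of at least 5 were whole multiples within 0.05, and library totals were 25.6 Mtags (parental) and 34.98 Mtags (EIR, where 1 Mtag is 1000000 tags). Regions were joined to GENCODE release 44 on GRCh37, the same build, with distances from the nearest edge. GC content and motifs were read from the central 500 bp, and a 36-base window recurs if found elsewhere in the genome on either strand. Eligible sequence is coding gene bodies over 5 kb from any TSS. Fold intervals are exact Clopper-Pearson and shares have Wilson intervals, at the 95% level, and both leave out replicate error. Regions in neither list have no value here.

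Named regions are the 10 largest folds, the 10 with the most tags, hosts of at least 3 members, those nearest the thresholds, and up to 4 hosts a gene list. One gene list is not reported here. The regions, gene lists, motifs and alternatives were chosen with earlier results of these data known. The reference holds no marks of repeats, so the repeat share that was planned was not computed and recurring windows were used instead. Scripts were tested on simulated data and ran in Python 3.11.15 (pysam 0.24.0, samtools 1.23.1, scipy 1.17.1, pandas 2.3.3, numpy 2.4.6 and matplotlib 3.10.9).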

Additional observations from a re-analysis of the deposited data

How the results depend on the processing

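Of 181 values recomputed under other settings, 150 stayed within 1.5 times of the main count or within the interval of the main value, and 31 moved. The GC difference, the only signed comparison rerun, kept its direction: EIR-higher regions were richer in GC than parental-higher ones by 5.60 to 9.20 percentage points under all 18 settings run. The others are counts or values of 1 group, whose comparison group was not rerun. Settings on chromosome ends, tags, recurring windows and single hosts, and all settings of the chromosome-end and start-site shares, were chosen after seeing the data. The start-site share of hosts (8.44 to 12.3%) moved under none of its 16 settings. Only the hosts were selected anew, and the EIR-higher regions at TSSs stayed those of the main run. How the share depends on the calling of those regions was therefore not tested.

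The 313 members became 206 at a margin of 10 kb, 147 at 4-fold, 117 at a p-value of 1e-06 and 132 with EIR tags multiplied by 0.8 (lower scaling), and their 270 hosts became 131 at 4-fold, 109 at that p-value and 122 at that scaling. The EIR-higher share of 16.1% became 35% at 4-fold, 7.5% under lower scaling, 29.6% with EIR tags divided by 0.8 (higher scaling), 13.4% without the outer 10 Mb and 18.6% under 30 tags. The share thus moves with the scale between the libraries, and regions in neither list could not enter. The median fold of 3.85 became 5.13 at 4-fold, 5.38 at the stricter p-value, 4.17 and 4.81 under lower and higher scaling, and 3.35 with 1 tag added to each library. Median GC of 49.2% became 51.6% at a 2 kb margin, 51.5% in the central 200 bp and 47.8% without the outer 10 Mb, and the GC difference of 6.60 points became 8.60 at 2 kb, 9.20 at 4-fold, 9.20 at the stricter p-value and 8.10 under lower scaling. The 86.6% of members that overlap no exon became 81.5% at 2 kb and 91.2% at 4-fold. The 18.1% of hosts with a parental-higher region became 4.58% at 4-fold, 3.67% at the stricter p-value and 9.26% under higher scaling, where fewer parental-higher regions remain. AP-1 matches fell from 18.2% to 6.07% in the central 200 bp, a shorter window, and the share near chromosome ends rose from 30.7% to 36.7% at 4-fold. The causes were not tested. No paired analysis was possible because each condition has 1 library.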
